A study of Mus musculus with 2 samples.

Results

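Vesicle docking and exocytosis genes are described here as a set of 39 genes, of the 32285 genes in the deposited count tables of mouse pancreatic islet cells. The members were taken from a fixed list of symbols (SNAREs, syntaxin-binding proteins, synaptotagmins, Rab3 and Rab27 GTPases with their effectors, priming factors and the granule proteins Ptprn and Ptprn2), and all 39 were found in both tables. Islet endocrine cells release hormone by fusing dense-core granules with the plasma membrane. Rab GTPases and their effectors tether the granule, priming factors prepare it, and pairing of a vesicle SNARE with SNAREs of the target membrane drives fusion when synaptotagmins sense calcium. In beta cells this machinery releases insulin after glucose raises calcium.

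The study compared 2 single-cell RNA libraries of pancreatic islets from 12-week-old female mice, 1 labelled SpopβKO (a beta-cell deletion of Spop) and 1 labelled Spop fl/fl (the floxed allele without that label). The title places the series in work on the beta-cell unfolded protein response and SPOP, which brings substrates to a ubiquitin ligase built on CUL3. Islets of both libraries were cultured for 3 days in medium with 10 mM glucose before they were dispersed, and were read with 3′ droplet chemistry that counts unique molecular identifiers (UMIs). The Cre driver, the deleted exons, the mouse strain and the number of mice pooled per library are not given in the labels. With 1 library per genotype there is no replicate check, so no test was made. Every interval below is a 95% interval for counting error alone, and every difference is one between these 2 libraries.

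The library labelled SpopβKO held 10033 barcodes and 89977773 UMIs, and the library labelled Spop fl/fl held 7768 barcodes and 82541585 UMIs. After filtering, 8842 and 6850 cells remained, and the libraries shared 21 barcodes. Cells were classed by their leading hormone, at least 1% of a cell's UMIs. Insulin led in 7154 SpopβKO-labelled and 4007 fl/fl-labelled cells, glucagon in 1185 and 1870, pancreatic polypeptide in 143 and 150, and somatostatin in 13 and 7, too few to compare. Spop itself stood at 96.6 CPM (its UMIs relative to all UMIs of the class outside the hormone genes) in insulin-led cells of the SpopβKO-labelled library and at 77.4 CPM in those of the fl/fl-labelled library, a log2 ratio of 0.32 (0.26 to 0.38). In glucagon-led cells it stood at 80.5 and 79.8 CPM, a log2 ratio of 0.01 (−0.12 to 0.14). The Spop counts thus go against the label in insulin-led cells. Tags at the 3′ end may lie outside the deleted part, so these counts check nothing, and all directions below rest on the labels.

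Promoters are shown for 5 members with higher counts in insulin-led cells of the SpopβKO-labelled library and for Napa, which had lower counts there. The difference of Napa stayed under the 1.5-fold limit used below. These are examples and not all such members with a window. Each window runs from 250 bases before to 50 bases after the gene start given by RefSeq (GRCm38.p6), 5′ to 3′ on the gene's strand. Capitals mark the core of a cAMP response element (CRE), TGACG, and the GC box, GGGCGG, on either strand; in Napa they also mark the whole CRE, TGACGTCA, which contains that core. The window of Rph3al lies inside the gene span of the GENCODE annotation, so other starts of that gene are not covered.
Rph3al (chr11:75925842-75926141, minus strand): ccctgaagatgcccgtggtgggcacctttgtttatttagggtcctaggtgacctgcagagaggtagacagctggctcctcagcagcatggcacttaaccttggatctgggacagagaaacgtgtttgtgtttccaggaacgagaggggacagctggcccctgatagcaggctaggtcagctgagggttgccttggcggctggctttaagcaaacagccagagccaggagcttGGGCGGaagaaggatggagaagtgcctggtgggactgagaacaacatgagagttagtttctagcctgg
Rab3d (chr9:21918134-21918433, minus strand): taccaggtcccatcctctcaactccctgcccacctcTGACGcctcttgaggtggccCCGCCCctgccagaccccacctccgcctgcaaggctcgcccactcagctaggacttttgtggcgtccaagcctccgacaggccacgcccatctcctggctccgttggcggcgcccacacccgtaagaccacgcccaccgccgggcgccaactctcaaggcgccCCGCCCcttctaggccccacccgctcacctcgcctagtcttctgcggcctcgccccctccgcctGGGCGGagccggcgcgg
Cadps (chr14:12823030-12823329, minus strand): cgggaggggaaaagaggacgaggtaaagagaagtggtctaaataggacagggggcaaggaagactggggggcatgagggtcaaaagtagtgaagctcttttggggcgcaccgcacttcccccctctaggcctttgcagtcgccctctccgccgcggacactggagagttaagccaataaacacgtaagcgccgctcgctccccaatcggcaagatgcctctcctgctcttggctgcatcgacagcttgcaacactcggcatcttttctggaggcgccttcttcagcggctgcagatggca
Sytl4 (chrX:133981763-133982062, minus strand): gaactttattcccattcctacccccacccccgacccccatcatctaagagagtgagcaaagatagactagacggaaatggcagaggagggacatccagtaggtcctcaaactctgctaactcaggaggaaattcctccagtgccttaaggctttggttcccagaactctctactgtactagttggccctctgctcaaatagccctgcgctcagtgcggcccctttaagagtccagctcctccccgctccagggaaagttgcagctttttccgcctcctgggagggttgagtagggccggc
Ptprn2 (chr12:116485470-116485769, plus strand): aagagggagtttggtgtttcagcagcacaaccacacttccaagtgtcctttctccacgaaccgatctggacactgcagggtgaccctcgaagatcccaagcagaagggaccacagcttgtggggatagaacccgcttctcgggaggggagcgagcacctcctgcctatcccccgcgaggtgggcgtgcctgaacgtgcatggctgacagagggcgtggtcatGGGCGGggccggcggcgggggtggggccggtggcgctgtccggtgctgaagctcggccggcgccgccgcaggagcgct
Napa (chr7:16098330-16098629, plus strand): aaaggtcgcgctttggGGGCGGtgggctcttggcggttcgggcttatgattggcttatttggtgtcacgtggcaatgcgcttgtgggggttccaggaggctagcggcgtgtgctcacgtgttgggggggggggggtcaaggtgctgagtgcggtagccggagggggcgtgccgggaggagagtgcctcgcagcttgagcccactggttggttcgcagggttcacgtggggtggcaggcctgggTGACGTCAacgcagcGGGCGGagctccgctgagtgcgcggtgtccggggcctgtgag
Of the 39 members, 29 had a promoter in the table, with 35 windows in all. The windows of Cadps and Sytl4 held neither element, Rph3al and Ptprn2 held a GC box, and Rab3d held both elements. The window of Cplx2, which is not printed and lies before the gene span of the GENCODE annotation, also held neither. The core TGACG was found in 15 of the 35 windows (42.9%) and in 20.8% of all 32851 windows. The whole CRE was found in 2 of the 35 (Napa and Stxbp3), against 1.79% of all windows. The GC box was found in 22 of the 35 (62.9%) and in 35.7% of all windows. The member windows were also richer in G and C, with a median of 60.3% against 52.7%. The 5 other motifs listed next were searched on both strands. The AP-1 site TGANTCA was in 0 of the 35 windows against 7.81% of all, the E-box CANNTG in 25 against 72.3%, the CCAAT box in 11 against 37.4%, the TATA box TATAAA in 2 against 13.6%, and GTTGCC, the core of RFX factor sites, in 7 against 12.5%. These matches describe letters in a window and not bound sites.

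Insulin-led cells of the library labelled SpopβKO had higher counts of several Rab proteins, Rab effectors, priming factors and granule phosphatase-like proteins, while none of the fusion SNAREs passed the same limits. CPM were taken over UMIs outside 7 hormone genes and scaled with trimmed mean (TMM) factors. A gene was called where the libraries differed at least 1.5-fold, the interval excluded no difference and the mean reached 10 CPM. Of the 39 members 35 reached that mean in insulin-led cells, 11 were called higher and 1 was called lower, where 6.81% of all genes tested were called higher and 3.05% lower. Stx1a, Cplx1, Doc2b and Cadps2 lay below 10 CPM. The median log2 ratio of the 35 members was 0.18, with 21 above and 14 below 0, beside −0.04 for all genes tested. In bulk sums such as these, fewer cells that use a gene and less RNA of it per cell cannot be told apart. Shares of cells with a UMI are given for the leading genes. At so few UMIs per cell a share also follows the RNA per cell, so it does not separate these either.

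The Rab effectors held the member with the highest ratio. Rph3al (Noc2, an effector of Rab3 and Rab27 on dense-core granules; chromosome 11, 75830999 to 75938429, minus strand) had 92.7 CPM (90.2 to 95.2, 5463 UMIs) in SpopβKO-labelled and 34.7 CPM (32.9 to 36.6, 1382 UMIs) in fl/fl-labelled insulin-led cells. This was a 2.67-fold difference, with a log2 ratio of 1.42 (1.33 to 1.504). With cells thinned to 5000 UMIs and shallower cells left out, which kept 4576 of 7154 SpopβKO-labelled and 2852 of 4007 fl/fl-labelled insulin-led cells, an Rph3al UMI was seen in 26.6% (25.3 to 27.9) of SpopβKO-labelled and 10.6% (9.52 to 11.8) of fl/fl-labelled cells. Among the deeper cells the share with an Rph3al UMI thus differed in the same direction as the CPM. Without thinning the shares were 35.5% and 21.1%, at medians of 7858 and 8966 UMIs. In non-endocrine cells, which were picked by mesenchymal, endothelial or macrophage markers, 6 of 102 SpopβKO-labelled and 0 of 60 fl/fl-labelled thinned cells had an Rph3al UMI, where 0 of 60 has a Clopper-Pearson upper bound of 5.96%, at unthinned medians of 10063.5 and 13225 UMIs.

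Sytl4 (granuphilin, which docks insulin granules through Rab27a and syntaxins; chromosome X, 133936385 to 133981812, minus strand) had 155 CPM in SpopβKO-labelled and 91.1 CPM in fl/fl-labelled insulin-led cells, a log2 ratio of 0.76 (0.71 to 0.82). Its share of thinned cells was 38.2% (36.8 to 39.7) and 27.2% (25.5 to 28.8). In non-endocrine cells it was 13.7% (7.71 to 22.0, 14 of 102) and 0% (0 to 5.96, 0 of 60), so non-endocrine cells differed in the same direction. Rims2, which binds Rab3, and Rims3, a short member of the same family, were not called. Rims2 had 60.0 and 49.5 CPM (log2 0.28) and Rims3 had 50.9 and 46.0 CPM (log2 0.15).

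Among the Rab3 and Rab27 GTPases, 3 of 4 were called higher. Rab3d, known from dense granules of several secretory cells (chromosome 9, 21907491 to 21918192, minus strand), had 55.5 CPM (53.6 to 57.4) in SpopβKO-labelled and 28.3 CPM (26.7 to 30.01) in fl/fl-labelled insulin-led cells, a log2 ratio of 0.97 (0.87 to 1.07). Its share of thinned cells was 18.4% and 9.78%, beside 8.82% and 6.67% in non-endocrine cells. Rab3a, the main Rab3 form of synaptic vesicles (chromosome 8, 70754679 to 70758677, plus strand), had 76.9 and 47.6 CPM, a log2 ratio of 0.69 (0.61 to 0.77). Rab27a, which recruits granuphilin to insulin granules (chromosome 9, 73044854 to 73097629, plus strand), had 102 and 67.0 CPM, a log2 ratio of 0.61 (0.54 to 0.67), just past 1.5-fold. Rab3b, the remaining GTPase, had 52.7 CPM in SpopβKO-labelled and 57.2 CPM in fl/fl-labelled cells (log2 −0.12) and was not called.

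Priming factors included 2 called members. Cplx2, a complexin that binds assembled SNARE bundles (chromosome 13, 54371349 to 54383917, plus strand), had 191 CPM (187 to 194) in SpopβKO-labelled and 94.0 CPM (91.0 to 97.1) in fl/fl-labelled insulin-led cells, a 2.03-fold difference. Thinned cells with a Cplx2 UMI made up 44.4% (42.9 to 45.8) and 24.2% (22.6 to 25.8), beside 10.8% and 8.33% of non-endocrine cells. Cadps (CAPS1, which primes dense-core granules; chromosome 14, 12372563 to 12823079, minus strand) had 114 and 65.7 CPM, a log2 ratio of 0.80 (0.74 to 0.87). Unc13a, the Munc13 priming protein, had 21.7 and 28.3 CPM (log2 −0.39) and was not called. The paralogs Cplx1 and Cadps2 were scarce, at 0.204 and 6.28 CPM in SpopβKO-labelled cells, against 0.276 and 5.42 CPM in fl/fl-labelled cells. Doc2b, a calcium sensor that binds SNAREs, had 1.53 and 2.48 CPM.

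Both granule phosphatase-like proteins were called higher. They are membrane proteins of dense-core granules and known autoantigens in autoimmune diabetes. Ptprn2 (phogrin; chromosome 12, 116485720 to 117276849, plus strand) had 96.8 CPM in SpopβKO-labelled and 58.1 CPM in fl/fl-labelled insulin-led cells, a log2 ratio of 0.74 (0.67 to 0.81). Ptprn (IA-2; chromosome 1, 75247027 to 75264502, minus strand) had 316 and 204 CPM, a log2 ratio of 0.63 (0.59 to 0.67).

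The synaptotagmins moved in both directions. Syt13, a member not known to bind calcium (chromosome 2, 92915098 to 92956058, plus strand), had 349 CPM in SpopβKO-labelled and 215 CPM in fl/fl-labelled insulin-led cells, a log2 ratio of 0.70 (0.66 to 0.74). Syt5, a calcium-binding member near the 10 CPM limit (chromosome 7, 4539765 to 4547541, minus strand), had 14.0 and 8.73 CPM, a log2 ratio of 0.68 (0.49 to 0.86). Syt4, linked in mouse beta cells to the maturation of the secretory response (chromosome 18, 31437808 to 31447406, minus strand), was the 1 member called lower, with 343 CPM (339 to 348) in SpopβKO-labelled and 529.8 CPM (523 to 537) in fl/fl-labelled cells. This was a 1.54-fold difference, with a log2 ratio of −0.63 (−0.65 to −0.60), and 64.3% and 73.9% of thinned cells had a Syt4 UMI, beside 15.7% and 13.3% of non-endocrine cells. Syt7, a high-affinity calcium sensor of insulin release, had 238 and 306 CPM (log2 −0.36) and was not called. Syt11 and Syt14 were not called either, at log2 0.04 and 0.21.

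Among the 12 SNAREs no member was called. The plasma-membrane SNARE Snap25 had 136 CPM in SpopβKO-labelled and 120.3 CPM in fl/fl-labelled insulin-led cells (log2 0.18, but −0.02 with every cell weighted equally), and its widely used relative Snap23 had 34.2 and 40.5 CPM (log2 −0.24). Stx3, a syntaxin of granule fusion, had 95.6 and 131 CPM (log2 −0.45), the lowest ratio of the SNAREs at 10 CPM. Vamp8, a vesicle SNARE known from newly arriving granules, had 245 and 184 CPM (log2 0.41), the highest ratio of the SNAREs at 10 CPM. Vamp2, the classical vesicle SNARE of regulated release, had 115 and 137 CPM (log2 −0.26). The remaining SNAREs (Stx4a, Stx5a, Stx7, Vamp3, Vamp4 and Vamp7 at 10 CPM or more, and Stx1a at 7.01 and 6.02 CPM) had log2 ratios of −0.12 to 0.33. Stxbp2, Stxbp3 and Stxbp5, which bind syntaxins, had log2 ratios of −0.26, 0.10 and −0.09. Napa (alpha-SNAP), which with the ATPase Nsf takes spent SNARE bundles apart, had 216 and 309 CPM (log2 −0.51, −0.55 to −0.48), while Nsf had 78.4 and 81.1 CPM (log2 −0.05). Vamp3 overlaps Camta1 on its own strand and Cadps2 overlaps Rnf133 and Rnf148, so their counts are uncertain.

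**Figure D1:**
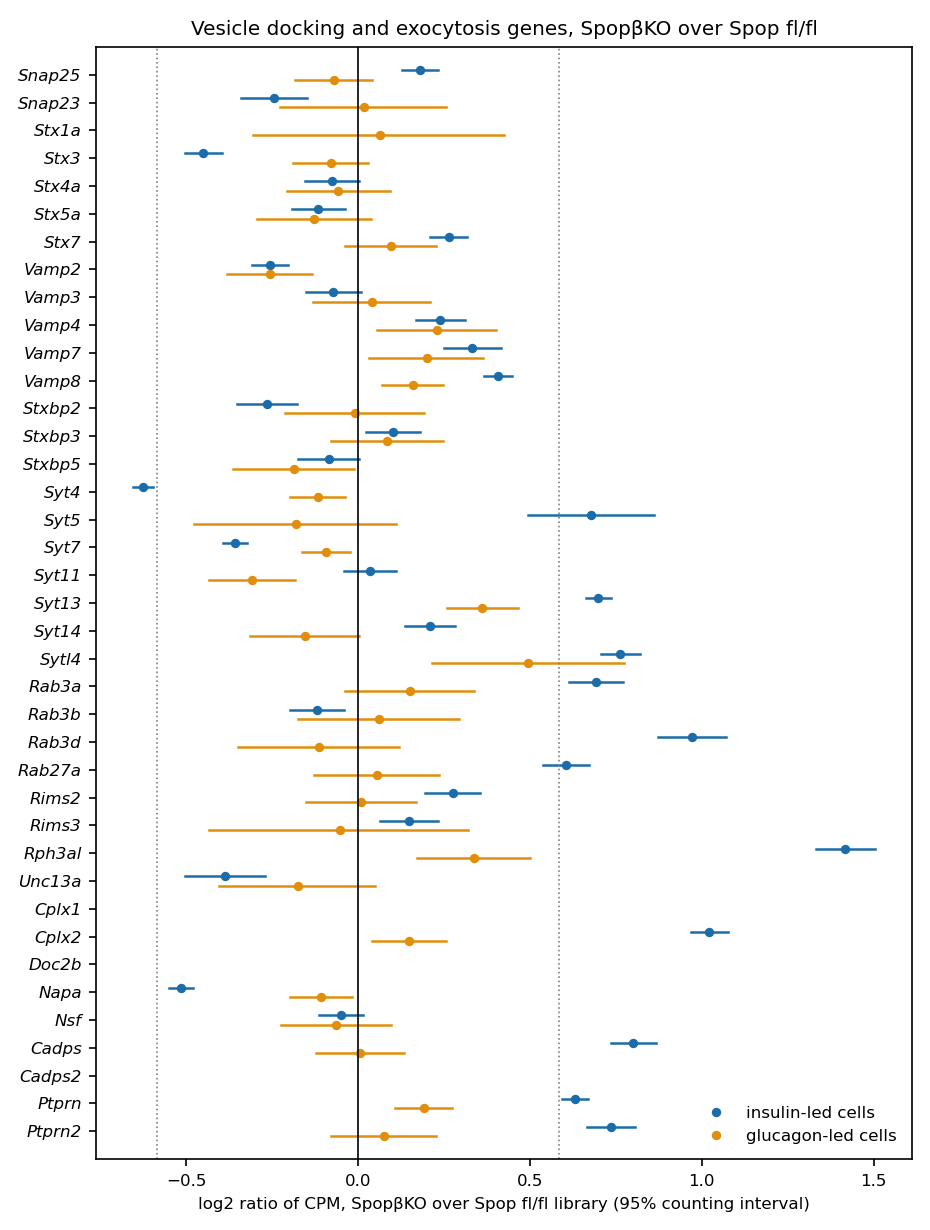
The x axis is the log2 ratio of CPM, library labelled SpopβKO over library labelled Spop fl/fl, for each member at a mean of at least 10 CPM, with 95% counting intervals as lines and dotted lines at 1.5-fold. In insulin-led cells (blue) 11 members lie right of the 1.5-fold line, led by Rph3al at 1.42, and Syt4 lies left of it, while in glucagon-led cells (orange) the members lie between −0.31 and 0.50.

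Some calls were lost under other settings, with the sign of the ratio kept. With every cell weighted equally Ptprn2 and Rab3a had log2 ratios of 0.57 and 0.50, just under 1.5-fold. Syt5 was then lost through the CPM limit alone, with a mean of 9.19 CPM and a log2 ratio of 0.77. Without cells holding a UMI of the heat shock genes Hspa1a or Hspa1b, Rab27a, Syt13 and Syt4 had log2 ratios of 0.43, 0.54 and −0.54, under 1.5-fold. Syt4 was at −0.58 without TMM factors, also just under it. Cells with such a UMI made up 13.4% of SpopβKO-labelled and 35.9% of fl/fl-labelled insulin-led cells, and their part in the other ratios was not tested. Markers of other cells moved with the insulin-led ratios too. The summed macrophage markers stood at 79.5 and 16.7 CPM, with 8 of 8 higher in SpopβKO-labelled cells (Ptprc at 0 in 1 library), and the acinar markers at 42.0 and 7.40 CPM, with 5 of 10 higher. Mesenchymal markers summed to 6.70 and 1.71 CPM with 7 of 8 higher (Pdgfra and Lum at 0 in 1 library), endothelial markers to 12.8 and 8.31 CPM with 6 of 7 higher (Flt1 at 0 in 1 library), and markers of pancreatic polypeptide cells outside the hormones to 51.2 and 8.38 CPM. Ductal markers summed to 791 and 541 CPM with 5 of 6 higher, delta-cell markers to 259 and 221 CPM with 3 of 4 higher, and glial markers to 10.9 and 12.5 CPM with 2 of 3 higher (Sox10 at 0 in 1 library). Alpha-cell markers summed to 457 and 509.7 CPM with 3 of 6 higher, and heat shock genes to 296 and 544 CPM with 0 of 4 higher. The 7 beta-cell markers outside the hormones summed to 1407 and 866 CPM, with 7 of 7 higher. The part of these markers in the members' ratios was not tested.

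Glucagon-led cells served as endocrine cells of the same libraries in which a beta-cell deletion is not aimed. Here 36 members reached 10 CPM, and 0 were called higher and 0 lower, where 0.65% and 0.796% of all genes tested were called. Their median log2 ratio was 0.01, beside −0.01 for all genes. The genes that led in insulin-led cells had smaller ratios here. Rph3al had 55.3 CPM in SpopβKO-labelled and 43.8 CPM in fl/fl-labelled glucagon-led cells, a log2 ratio of 0.34 (0.17 to 0.50). Cplx2 had 120.5 and 109 CPM, a log2 ratio of 0.15 (0.04 to 0.26). Rab3d had 24.7 and 26.7 CPM (log2 −0.11), and Cadps had 83.0 and 82.6 CPM (log2 0.01). The highest ratio was that of Sytl4, at 20.5 and 14.6 CPM, a log2 ratio of 0.50 (0.21 to 0.77), and the lowest was that of Syt11 at −0.31. Syt4 had 200.3 and 217 CPM (log2 −0.12). The median insulin share of glucagon-led cells was 1.06% in the SpopβKO-labelled and 0.295% in the fl/fl-labelled library, and its part in these ratios was not tested. The difference between the classes has no replicate and was not tested either.

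Pancreatic-polypeptide-led cells were few, and again 0 members were called either way, where 2.15% of all genes were called higher and 3.12% lower. In the 128 SpopβKO-labelled and 69 fl/fl-labelled non-endocrine cells, 14 of the 31 members at 10 CPM were called higher and 0 lower, where 7.63% and 8.95% of all genes were called. They included Sytl4, at 79.0 CPM in SpopβKO-labelled and 8.75 CPM in fl/fl-labelled non-endocrine cells, and Rph3al, at 26.1 and 4.86 CPM. These cells also held more insulin, with a median of 0.790% of UMIs in SpopβKO-labelled and 0.169% in fl/fl-labelled cells, and the 7 beta-cell markers summed to 479.7 and 97.2 CPM. Carried-over beta-cell RNA, doublets and expression in these cells cannot be told apart.

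Cells with no hormone at 1% of their UMIs were 218 in the SpopβKO-labelled and 744 in the fl/fl-labelled library. In them 3 of the 36 members at 10 CPM were called higher and 3 lower, where 6.34% and 5.48% of all genes were called. Both counts thus lay near the share of all genes. A second hormone within 4 times the first was found in 32 SpopβKO-labelled and 350 fl/fl-labelled cells of this class. Its part in the ratios was not tested. Stx1a, the neuronal plasma-membrane syntaxin, had 15.1 CPM in SpopβKO-labelled and 6.92 CPM in fl/fl-labelled cells, from 34 and 57 UMIs. Syt5 and Syt11 were the other members called higher. Syt7 had 175 and 286 CPM (log2 −0.71), and Rab27a had 50.9 and 80.05 CPM (log2 −0.65). Rims3 was the third member called lower, at 24.3 and 37.5 CPM. Rph3al, which led in insulin-led cells, had 45.6 and 39.4 CPM (log2 0.21) and was not called.

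The ratios were then read in 4 bands of insulin-led cells, set by the share of a cell's UMIs from Ins1 and Ins2. The bands of 1 to 5%, 5 to 10%, 10 to 20% and 20% or more held 1949, 1854, 1609 and 1742 SpopβKO-labelled cells, against 1645, 740, 750 and 872 fl/fl-labelled cells. In the lowest band 1 of 34 members at 10 CPM (Rph3al) was called higher and 0 lower, where 3.02% and 1.82% of all genes were called. In the band of 5 to 10% these were 5 and 0 of 35 members, against 6.75% and 3.1% of all genes. In the band of 10 to 20% they were 11 and 2 of 35, against 10.1% and 4.81%. In the highest band they were 10 and 2 of 35, against 16.4% and 10.5%, so a larger share of all genes differed there as well. The 1 member higher in the lowest band was near the share of all genes. The 2 members lower in the highest band were a smaller share than that of all genes.

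Rph3al was called in every band, and its log2 ratio went up with each, at 0.82, 1.36, 1.66 and 2.02. In the highest band it had 125 CPM (119.7 to 131) in SpopβKO-labelled and 30.9 CPM (26.6 to 35.8) in fl/fl-labelled cells, a 4.05-fold difference. Rab3d had log2 ratios of 0.35, 0.83, 1.16 and 1.62 from the lowest to the highest band. Cplx2 had 0.46, 1.07, 1.30 and 1.45 and Cadps had 0.39, 0.70, 0.90 and 1.35. Syt13, called in the whole class, had a ratio of 0.04 (−0.03 to 0.10) in the lowest band and of 1.23 (1.14 to 1.31) in the highest. Sytl4 likewise had 0.12 and 1.07, and Rab27a 0.21 and 1.16. For these 7 genes the ratio was larger in the highest band than in the lowest. In the lowest band the median insulin share was 3.32% in SpopβKO-labelled and 2.25% in fl/fl-labelled cells. A second hormone within 4 times the first was found in 176 and 262 cells of that band. In the highest band it was found in 7 and 2 cells. The part of these differences in the band ratios was not tested.

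Ptprn had 0.30, 0.58, 0.78 and 0.79. Ptprn2 and Rab3a also had larger ratios in the highest band (0.81 and 0.58) than in the lowest (0.38 and 0.33), but Ptprn2 peaked at 0.84 in the band of 5 to 10% and Rab3a at 0.81 in that of 10 to 20%. Syt5 had 0.56 in both the lowest and the highest band. Syt4 was below 0 in all 4 bands, between −0.64 and −0.45, and was called lower only in the band of 10 to 20%. Napa was called lower in the bands of 10 to 20% and 20% or more, at −0.61 and −0.76, with 219 CPM in SpopβKO-labelled and 372 CPM in fl/fl-labelled cells of the highest band. Stx3 was called lower in the highest band, at 72.9 and 127 CPM (log2 −0.81). Vamp7, a vesicle SNARE of late endosomes and lysosomes, was called higher there, at 63.0 and 39.4 CPM (log2 0.68). In the highest band 10.3% of SpopβKO-labelled and 33.1% of fl/fl-labelled cells had an Hspa1a or Hspa1b UMI, and the median mitochondrial share was 1.95% and 0.815%. The part of these in the band ratios was not tested.

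**Figure D2:**
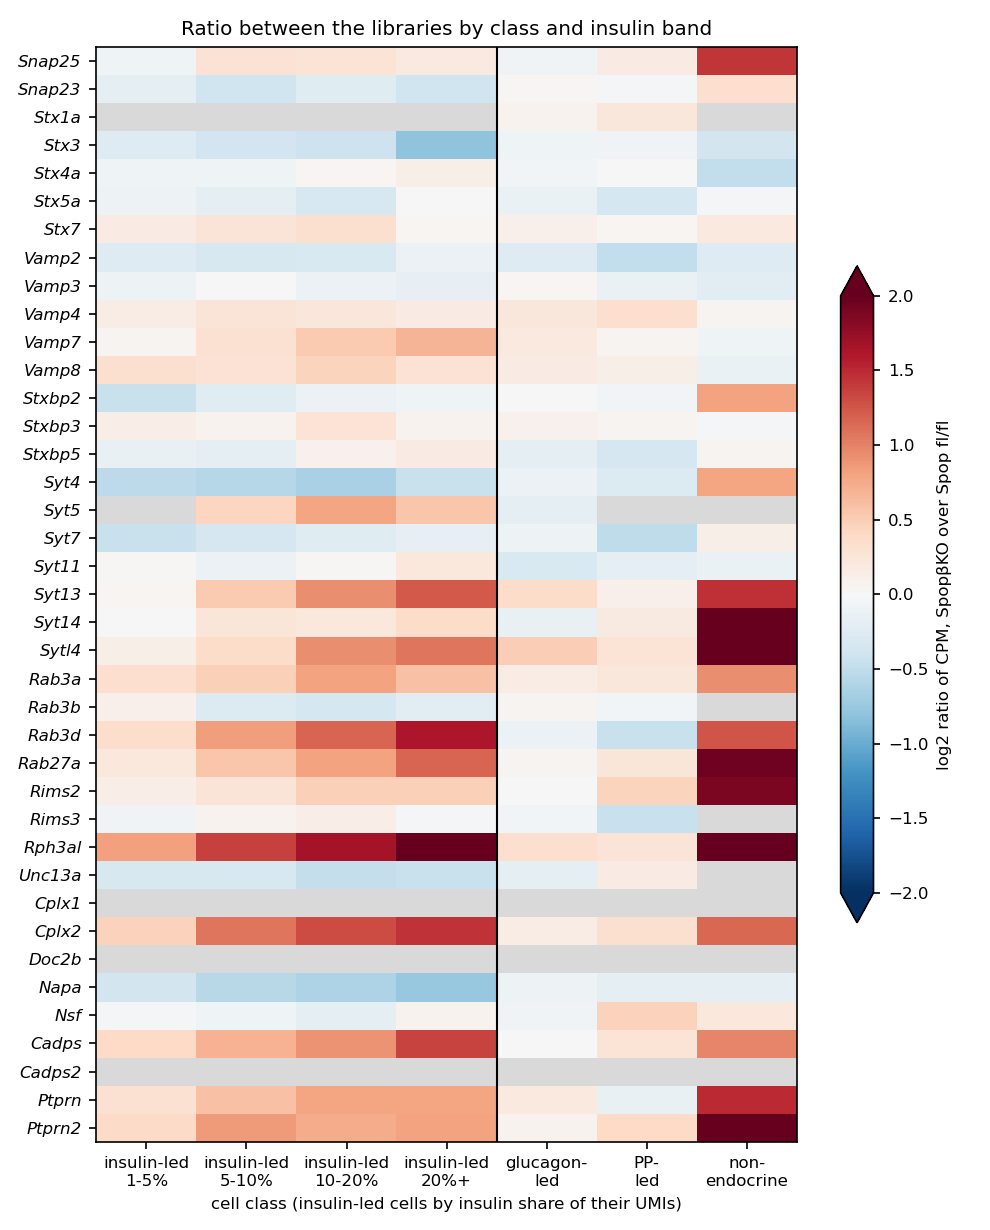
Rows are the 39 members and columns are the 4 insulin bands and 3 other cell classes, with colour for the log2 ratio of CPM, SpopβKO-labelled over fl/fl-labelled library (red higher, blue lower, grey under 10 CPM). Rph3al deepens in red from 0.82 to 2.02 across the bands, Syt4 is blue in all 4 bands, and the glucagon-led column is pale.

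Within each library the highest insulin band was also set against the lowest, which needs no scaling between libraries. These contrasts use the same counts as the band ratios above. Among SpopβKO-labelled cells 11 of 35 members at 10 CPM were called higher and 1 lower in the highest band, where 7.09% and 7.32% of all genes were called. Among fl/fl-labelled cells 3 of 35 were called higher and 2 lower, where 5.68% and 19.1% of all genes were called. Syt5, Rab3a and Rims3 were higher with high insulin in both libraries, and Syt4 was lower in both. Rims3 had 80.1 CPM with high and 38.5 CPM with low insulin in SpopβKO-labelled cells, and 76.7 and 39.5 CPM in fl/fl-labelled cells. Syt4 had 271 CPM with high and 426 CPM with low insulin in SpopβKO-labelled cells, and 348 and 593 CPM in fl/fl-labelled cells. Rims3 and Syt4 thus differed between the bands in the same direction in both libraries.

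Of the other 8 members called higher with high insulin in SpopβKO-labelled cells, 5 had the opposite sign in fl/fl-labelled cells. Rph3al had 129 CPM in the highest and 73.8 CPM in the lowest band of SpopβKO-labelled cells, a log2 ratio of 0.81 (0.70 to 0.91), and 30.03 and 40.6 CPM in fl/fl-labelled cells, a log2 ratio of −0.43 (−0.68 to −0.19). Cplx2 had log2 ratios of 0.71 (0.64 to 0.79) in SpopβKO-labelled and −0.32 (−0.46 to −0.18) in fl/fl-labelled cells. Rab3d had 0.96 (0.82 to 1.10) and −0.35 (−0.63 to −0.09), and Cadps had 0.65 (0.55 to 0.74) and −0.35 (−0.53 to −0.18). Syt13 had 1.09 (1.04 to 1.15) and −0.14 (−0.24 to −0.05). For these 5 genes the counting intervals of the 2 libraries lay on opposite sides of 0, and the fl/fl-labelled differences stayed under 1.5-fold. These ratios carry no TMM factors, and the fl/fl-labelled median for all genes tested was itself −0.18. The fl/fl-labelled −0.14 of Syt13 lay above that median, and the interval of Rab3d held it. The intervals of Cadps and Cplx2 ended at it after rounding, and that of Rph3al ended just below it. Counted from the median gene instead of 0, the fl/fl-labelled fall of these 5 genes was thus smaller or absent. Sytl4, Ptprn2 and Ptprn did not reverse. Sytl4 had 1.45 (1.36 to 1.53) in SpopβKO-labelled and 0.46 (0.33 to 0.59) in fl/fl-labelled cells, Ptprn2 had 0.75 (0.65 to 0.86) and 0.28 (0.11 to 0.44), and Ptprn had 0.59 (0.53 to 0.65) and 0.06 (−0.04 to 0.15). Rab27a, not called, had opposite signs, at 0.45 and −0.55, neither past 1.5-fold. The medians of the 35 members were 0.32 and −0.03, beside −0.07 and −0.18 for all genes tested. The opposite directions rest on 1 library each and were not tested.

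**Figure D3:**
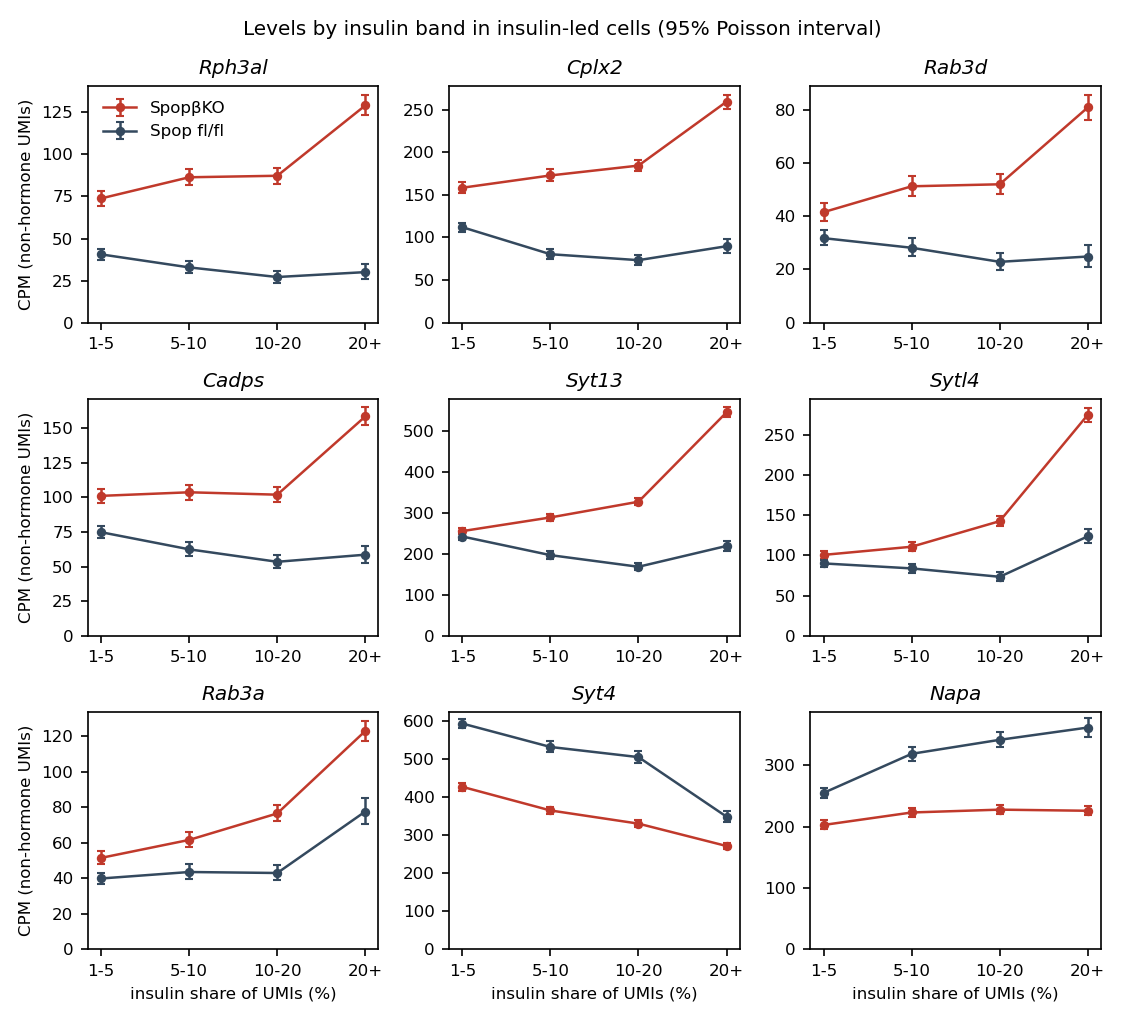
Each panel gives 1 member, with the insulin share of a cell's UMIs on the x axis and CPM of non-hormone UMIs, not scaled between libraries, on the y axis, for the library labelled SpopβKO (red) and the library labelled Spop fl/fl (dark blue), with 95% Poisson intervals. Rph3al is at 129 CPM in the highest band of the SpopβKO-labelled library and at 30.03 CPM in that of the fl/fl-labelled library, while Syt4 goes down with the insulin share in both libraries.

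Insulin-led cells were next set against glucagon-led cells of the same library, to see which members mark the insulin-led class. In the SpopβKO-labelled library 15 of 35 members at 10 CPM were called higher and 0 lower in insulin-led cells, where 11.5% and 5.15% of all genes were called. In the fl/fl-labelled library 8 were called higher and 2 (Syt5 and Syt11) lower, where 11.7% and 7.87% were called. Syt4, Syt13, Sytl4, Rab3b, Rab27a and Rims3 were higher in insulin-led cells of both libraries. Sytl4 had 157 CPM in insulin-led and 20.6 CPM in glucagon-led cells of the SpopβKO-labelled library, and 89.8 and 14.5 CPM in the fl/fl-labelled library. Rims3 was similarly skewed, 5.18-fold and 4.42-fold higher in insulin-led cells. Rph3al, Cplx2 and Rab3d were higher in insulin-led cells of the SpopβKO-labelled library, by 1.69-fold, 1.60-fold and 2.27-fold, and were not called in the fl/fl-labelled library, at log2 −0.35, −0.22 and 0.07. Against pancreatic-polypeptide-led cells 13 of 36 members were called higher and 1 (Stx1a) lower in SpopβKO-labelled insulin-led cells, where 12% and 5.37% of all genes were called, and 9 of 34 members higher and 1 (Cplx2) lower in fl/fl-labelled ones, where 12.8% and 7.94% were called. Cplx2 had 194 CPM in insulin-led and 199 CPM in pancreatic-polypeptide-led cells of the SpopβKO-labelled library, and 92.7 and 156 CPM in the fl/fl-labelled library. When pancreatic-polypeptide-led cells were set against glucagon-led cells, 2 of 36 members (Rab3a and Cplx2) were called higher and 2 lower in the SpopβKO-labelled library, where 3.7% and 3.56% of all genes were called. In the fl/fl-labelled library 1 (Rims3) was called higher and 2 lower, where 4.85% and 5.83% were called. The lower members were Syt5 and Syt11 in both libraries, and these few calls lay near the shares of all genes. Syt11, a synaptotagmin not known to sense calcium, had 47.8 CPM in pancreatic-polypeptide-led and 82.0 CPM in glucagon-led cells of the SpopβKO-labelled library, and 53.5 and 101 CPM in the fl/fl-labelled library. Against non-endocrine cells, 27 of 35 and 25 of 34 members were called higher and 1 each lower, where 40.5% and 38% of all genes were called higher and 15.6% and 19.6% lower. The lower members were Snap23 in the SpopβKO-labelled and Stx4a in the fl/fl-labelled library.

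Paralogs that can take the same place in the machinery were compared by their share of UMIs within 9 sets. Such shares need no scaling between libraries, but the efficiency of the 3′ tag can differ between genes, so only shifts of a share are read. In the Rab3 set of insulin-led cells Rab3b made up 28.5% (27.6 to 29.3) of UMIs in the SpopβKO-labelled and 43.0% (41.6 to 44.3) in the fl/fl-labelled library. Rab3d made up 29.98% and 21.3%, and Rab3a 41.6% and 35.8%. In glucagon-led cells Rab3b made up 28.3% and 28.1%. Of these 4 shares that of fl/fl-labelled insulin-led cells was the highest.

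Among the vesicle SNAREs of insulin-led cells Vamp8 made up 59.6% (58.9 to 60.2) of Vamp2, Vamp3 and Vamp8 UMIs in the SpopβKO-labelled and 49.1% (48.3 to 49.9) in the fl/fl-labelled library, and Vamp2 made up 27.9% and 36.5%. Glucagon-led cells showed a smaller shift of the same sign, with Vamp8 at 57.7% and 52.3%. In the target-membrane pair Snap25 made up 79.9% and 74.8% in insulin-led cells and 81.4% and 82.3% in glucagon-led cells. In non-endocrine cells Snap23 took a larger share of the pair than in insulin-led cells, at 64.8% (55.8 to 73.1) and 79.6% (66.5 to 89.4). Rims3 took 45.9% and 48.1% of the Rims pair in insulin-led cells, and 15.5% and 16.0% in glucagon-led cells, a split between cell classes that both libraries shared. Among the syntaxins Stx4a took 33.6% and 28.6% in insulin-led cells, and 64.8% and 62.1% in non-endocrine cells. Stx3 took 61.8% and 68.2% in insulin-led cells, and 32.4% and 28.6% in non-endocrine cells. Of Stxbp2 and Stxbp3 UMIs, Stxbp2 made up 41.1% and 47.4% in insulin-led cells. In non-endocrine cells it made up 42.3% (32.7 to 52.4) and 29.3% (18.1 to 42.7).

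**Figure D4:**
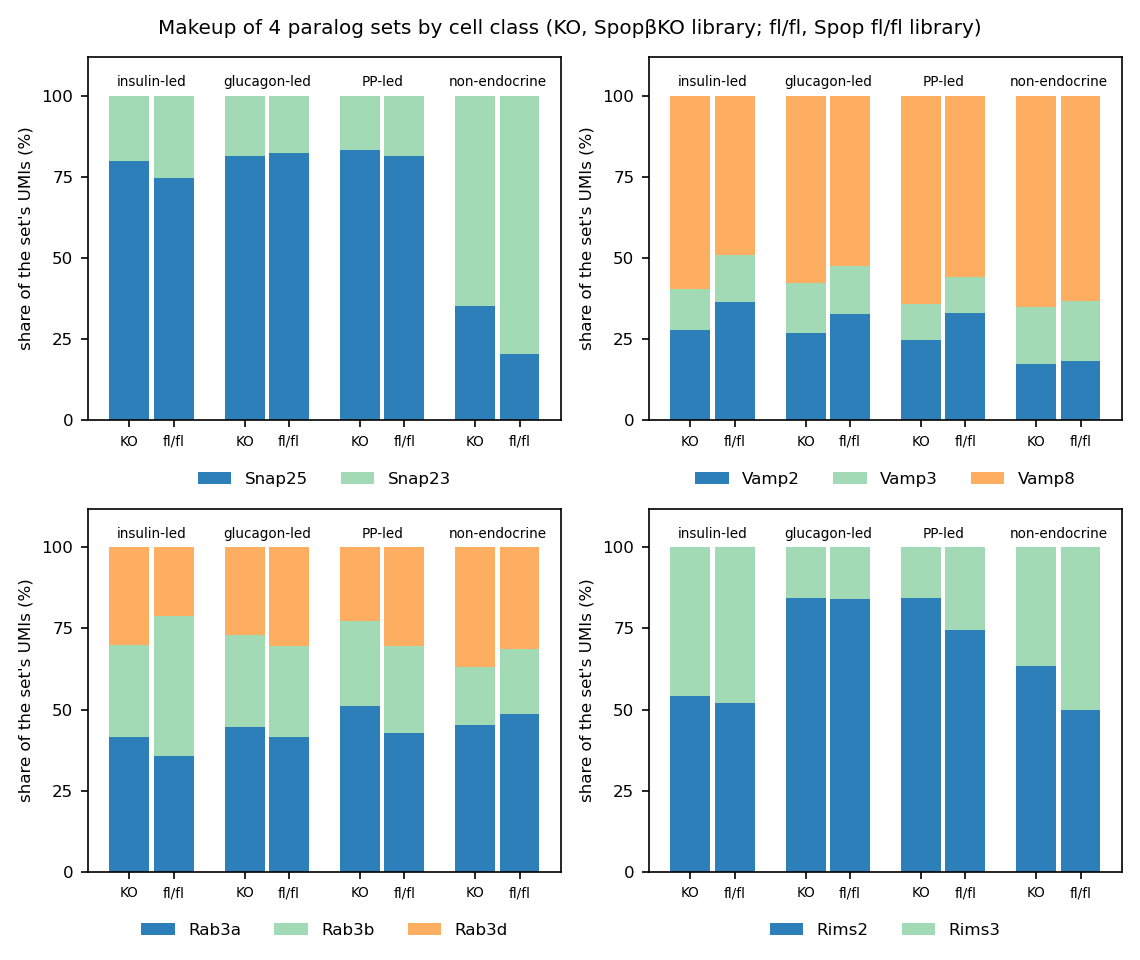
Stacked bars give each gene's share (%) of the UMIs of its paralog set in 4 cell classes, for the library labelled SpopβKO (KO, left of each pair) and the library labelled Spop fl/fl (right). Rab3b takes 28.5% of the Rab3 set in SpopβKO-labelled and 43.0% in fl/fl-labelled insulin-led cells, and Rims3 takes a larger share in insulin-led than in glucagon-led cells of both libraries.

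The rest of the exocytosis pathway was read from a list of 85 further genes. In insulin-led cells 51 reached 10 CPM, 8 were called higher and 1 lower, where 6.81% and 3.05% of all genes were called, with a median log2 ratio of 0.13 beside −0.04 for all genes tested. Stxbp5l, a tomosyn that competes for SNARE pairing, had 40.1 CPM in SpopβKO-labelled and 16.7 CPM in fl/fl-labelled insulin-led cells, a log2 ratio of 1.27 (1.14 to 1.39). The active-zone scaffold Pclo had 295 and 166 CPM (log2 0.83), and the active-zone protein Rimbp2 had 65.2 and 36.5 CPM (log2 0.84). The Rab27 effector Exph5 had 51.6 and 29.5 CPM (log2 0.81). Napb, the neuronal relative of Napa, was the 1 gene called lower, at 39.8 and 65.8 CPM (log2 −0.72). The 9 exocyst subunits all reached 10 CPM and none was called in insulin-led cells as a whole, with log2 ratios of −0.29 to 0.56. In the highest insulin band 2 of the 9 (Exoc6 and Exoc7) were called higher, with ratios up to 0.97, where 16.4% of all genes were called higher. In glucagon-led cells 50 genes of the list reached 10 CPM and 0 were called higher or lower, where 0.65% and 0.796% of all genes were called.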

How the data were processed

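The authors deposited raw UMI counts for each gene and barcode, and the file headers name Cell Ranger 6.0.0. The submitters' processing notes name mm10, R 4.1.1 and Seurat 4.1.0, and how barcodes were accepted as cells is not given in the sources used here. Kept barcodes had at least 500 genes and a mitochondrial share of at most 15%. A cell was non-endocrine with at least 10 UMIs and 3 genes of mesenchymal, endothelial or macrophage markers. Counts were summed per class and library and scaled to CPM outside Ins1, Ins2, Iapp, Gcg, Sst, Ppy and Pyy, with TMM factors of 1.01 and 0.986 for insulin-led cells of the SpopβKO-labelled and fl/fl-labelled library, and without them within a library. Intervals are exact: Poisson for counts, conditional for ratios, Clopper-Pearson for shares. No doublet caller was run, so doublets remain. Instead, cells with a second hormone within 4 times the first, or above 40000 UMIs, were left out as alternatives. The computations were tested on simulated data and used pandas 2.3.3, scipy 1.17.1 and numpy 2.4.6 under Python 3.11.15, with matplotlib 3.10.9 for the figures. Positions are from GENCODE M21 on mm10, and 39 of 39 members matched by identifier. Vamp7 lies on an unplaced scaffold there.

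The members, lists and tests were chosen with earlier results of these data known. All 39 members are accounted for. By rule, those called in insulin-led cells (filled up to 12 by ratio if fewer) are described in full. Paralogs of sets in which a share moved by at least 10 percentage points between libraries or between classes were to be so too. Some of these paralogs, such as Stxbp2 and Stxbp3, are given ratios or shares only. Other members, such as Napa, Vamp7, Syt7 and Syt11, are given values by role. Members singled out in a band or class, Stx3 among them, were chosen after their values were seen. From the further pathway list up to 4 called genes each way are named, those whose interval lay farthest from a log2 ratio of 0.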

Additional observations from a re-analysis of the deposited data

Results flagged for a closer look

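Members were singled out where the same contrast within a library ran in opposite directions in the 2 libraries, with both counting intervals excluding 0 and at least 1 difference past 1.5-fold. Between the highest and the lowest insulin band this held for 5 members. The log2 ratio of Syt13 was 1.09 in SpopβKO-labelled and −0.14 in fl/fl-labelled cells, that of Rab3d was 0.96 and −0.35, and that of Rph3al was 0.81 and −0.43. Cplx2 had 0.71 and −0.32, and Cadps had 0.65 and −0.35. For all genes tested the median was −0.07 in SpopβKO-labelled and −0.18 in fl/fl-labelled cells. The fl/fl-labelled −0.14 of Syt13 thus lay above that of the median gene. Counted from that median instead of 0, the fl/fl-labelled fall of the others was smaller, and the counting interval of Rab3d held the median. Between insulin-led and glucagon-led cells the rule held for Rph3al, at 0.76 in the SpopβKO-labelled and −0.35 in the fl/fl-labelled library, and for Cplx2, at 0.68 and −0.22. These contrasts use the same counts as the ratios between libraries given above, so they restate those ratios and are no separate evidence. The difference between the libraries was not tested, because each genotype has 1 library.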

How the results depend on the processing

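Each alternative is 1 comparison of the same 2 libraries, so agreement between settings says nothing about other mice. Depth limits members under 10 CPM, such as Cplx1 and Doc2b, and the smaller classes. In insulin-led cells 8 to 11 members were called higher over all alternatives. The count of members called lower was 0 without TMM factors, 0 without cells holding an Hspa1a or Hspa1b UMI (Syt4 lost in both), and 2 with insulin at 5% or more of UMIs (Napa added). The median log2 ratio, 0.18 as reported, was 0.066 with every cell weighted equally and 0.10 without the Hspa1a or Hspa1b cells. In glucagon-led cells the count called higher was 1 (Sytl4) with the leading hormone at least 4 times the next and 2 (Rph3al and Sytl4) with cells thinned to 5000 UMIs. With TMM factors over all genes Syt5 kept its log2 ratio of 0.68 but had a mean of 9.35 CPM, under the 10 CPM limit, and at a mean of 50 CPM Rab3d and Syt5 were not considered. With no hormone minimum, an alternative chosen after seeing the data, Rab27a was at 0.52, under 1.5-fold. The cause of the other shifts was not tested. Among single members' ratios and paralog shares 1031 moved by less than the counting interval of the reported value and 138 moved by more, and none that was called changed sign. No paired analysis was possible because each genotype has 1 library.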
